A study of Macaca mulatta with 24 samples.

Results

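The chemokines that draw neutrophils through the receptor CXCR2 were followed in the ileum of rhesus macaques (Macaca mulatta) after total body irradiation (TBI). Every array probe was taken whose gene symbol in the deposited normalized table was CXCL8 (listed there under its older name IL8), CXCL1, CXCL3, CXCL5, CXCL6 or CXCR2. This gave 9 of the 43603 probes and 5 of the 16217 named genes on the array. There were 3 probes for CXCL8, 2 for CXCL1, 2 for CXCL5 and 1 each for CXCL3 and CXCL6, and no probe carried the symbol CXCR2. Of the 9 probes, 7 were bright enough to be tested among 36108 tested probes. Both probes of CXCL5 were not.

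Ileum came from 24 animals, each on its own array. Unirradiated controls (0 Gy, labelled day 4) numbered 4, and 20 animals had received TBI at 6.7 or 7.4 Gy. Each dose was sampled in 4 animals on day 4, in 4 on day 7 and in 2 on day 12. The same 4 controls served for all days and both doses, so comparisons with control share their samples. No genotype or age is given in the labels. The protocol text of the labels names a later last day than the sample labels, and the day 12 of the sample labels was used. Ileal identity was checked on FABP6 and SLC10A2, the bile acid carriers of ileal enterocytes, and both were well above background on 24 of 24 arrays. The share of probes well above background was between 72.7% and 88.1% per array.

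Chemokines are small secreted proteins that guide leukocytes, and those of the CXC class with a glutamate-leucine-arginine motif act on neutrophils. All of the ligands studied here bind CXCR2, and CXCL8 and CXCL6 also bind the closely related CXCR1. In the gut they are made by epithelium, macrophages, fibroblasts and endothelium after stimulation by TNF, IL-1 or bacterial products, mostly through NF-kB, and they are known for short, steep bursts of transcription. In the RefSeq annotation of the assembly T2T-MMU8v2.0 the genes lie in the order CXCL3, PPBP, PF4, CXCL1, PF4V1, CXCL6 and CXCL8, with 0 to 2 other genes between neighbors, and CXCR2 stands next to CXCR1. CXCL1, CXCL2 and CXCL3 are very similar in sequence, and reading of one transcript by the probe of another was not tested.

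Signals are given on the log2 scale relative to the 75th percentile of all probes on the same array, so a value of -3 lies 3 log2 units below that percentile. They compare animals for 1 probe and do not compare probes with each other. Called means an adjusted p below 0.05 together with a difference of 2-fold or more. Adjusted p-values are from limma, by the Benjamini-Hochberg method across the tested probes of each comparison.

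On day 4 the signals of CXCL8, CXCL1 and CXCL3 were high in all 4 animals that had received 7.4 Gy and in 2 of the 4 that had received 6.7 Gy (by the brightest probe of each gene). The group means lay above control by 2.17-fold to 4.17-fold in these 3 genes, and less in CXCL6. Only 1 probe in 1 of these comparisons passed the test, CXCL1 probe 2 after 7.4 Gy. On days 7 and 12 no probe was called against control, and both CXCL1 probes and some CXCL8 probes were called lower than on day 4.

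CXCL8 (interleukin 8) is the best known of these chemokines and a ligand of both receptors. In the controls its brightest probe (probe 1, A_01_P1688071) measured -3.36, -5.22, -3.67 and -3.73 in replicates 1 to 4. On day 4 after 7.4 Gy the 4 animals measured -1.42, -2.38, -1.60 and -2.63, and after 6.7 Gy they measured -3.51, -1.55, -3.97 and -0.02. All animals of the higher dose lay above all controls. After 6.7 Gy replicates 2 and 4 were above all controls while replicates 1 and 3 lay inside the control range. The mean change against control was 1.98 log2 units after 7.4 Gy (SE 0.64, 3.96-fold, adjusted p = 0.068 by limma) and 1.73 after 6.7 Gy (SE 0.64, 3.32-fold, adjusted p = 0.13 by limma). Neither passed the test.

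On the other CXCL8 probes 6.7 Gy replicate 1 also lay above all controls, at -3.74 on probe 2 and -4.08 on probe 3. Probe 2 (A_01_P1688076) and probe 3 (A_01_P1671996) share 1 RefSeq transcript as their target. After 7.4 Gy probe 2 ranged from -3.65 to -2.45 and probe 3 from -3.78 to -2.36, against -4.79 to -3.92 and -5.63 to -4.33 in the controls. Neither range touched that of the controls. Their changes after 7.4 Gy were 1.16 (SE 0.45, adjusted p = 0.12 by limma) and 1.63 (SE 0.50, adjusted p = 0.056 by limma). After 6.7 Gy they were 1.12 (SE 0.45, adjusted p = 0.15) and 1.50 (SE 0.50, adjusted p = 0.099), with 3 of 4 animals above all controls on both probes. The changes read from the 3 CXCL8 probes were thus between 1.12 and 1.98 log2 units on day 4, and they ranked the 2 doses alike.

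**Figure D1:**
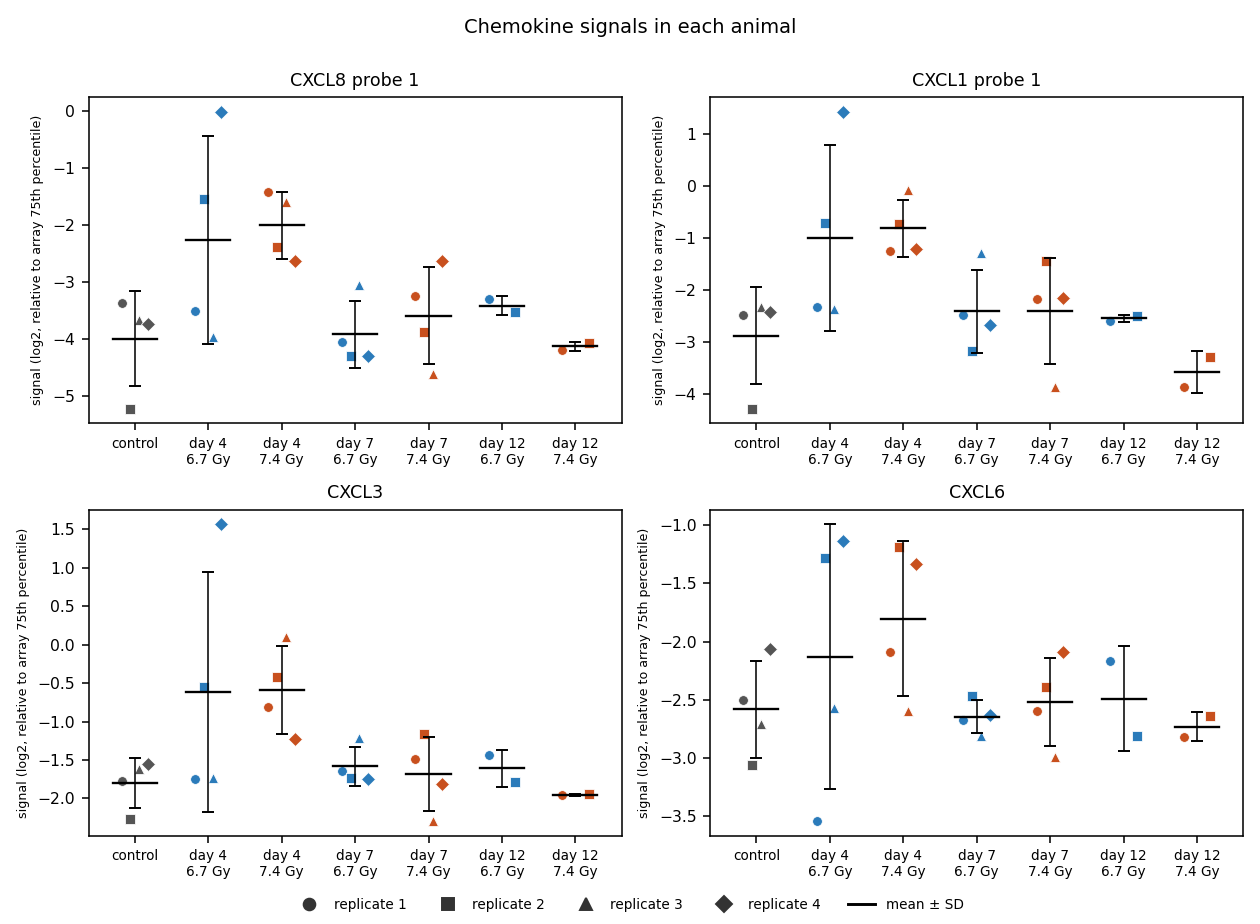
Signal of the brightest probe of CXCL8 and CXCL1 and of the probes of CXCL3 and CXCL6 (vertical axes, log2 relative to the 75th percentile of the array) in each of 24 animals by group, with grey for control, blue for 6.7 Gy, orange for 7.4 Gy, the marker for the replicate number, a line for the mean and a bar for the SD. On day 4 after 6.7 Gy the animals are split, with replicate 4 the highest of all 24 in each panel. Replicates 1 and 3 are near the controls in CXCL8, CXCL1 and CXCL3, and in CXCL6 replicate 1 is below all controls. After 7.4 Gy CXCL8, CXCL1 and CXCL3 lie above all controls in 4 of 4 animals.

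CXCL1 acts on CXCR2 and is made early in inflamed epithelium and stroma. Its brightest probe (probe 1, A_01_P1774586) measured -2.48, -4.27, -2.33 and -2.41 in the controls. On day 4 the signals were -1.24, -0.72, -0.08 and -1.21 after 7.4 Gy and -2.33, -0.70, -2.36 and 1.42 after 6.7 Gy. All of the 7.4 Gy animals and replicates 2 and 4 of the 6.7 Gy animals were above all controls, the same split as on CXCL8 probe 1. The change was 2.06 log2 units after 7.4 Gy (SE 0.68, 4.17-fold, adjusted p = 0.073 by limma) and 1.88 after 6.7 Gy (SE 0.68, 3.68-fold, adjusted p = 0.12 by limma).

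CXCL1 probe 2 (A_01_P1670286) was the probe that was called. It measured -3.87, -5.00, -3.93 and -3.38 in the controls, and -2.24, -1.94, -1.02 and -2.76 on day 4 after 7.4 Gy. The 2 groups did not overlap. It rose by 2.06 log2 units (SE 0.56, 4.16-fold, adjusted p = 0.034 by limma). After 6.7 Gy it measured -3.38, -1.73, -3.48 and -0.15, and the change of 1.86 (SE 0.56, 3.63-fold, adjusted p = 0.073 by limma) was not called. The call at 7.4 Gy was lost without control replicate 1, 2 or 3, and without replicate 1, 2 or 3 of the 7.4 Gy group, where 0 probes were called in each case. The change itself lay between 1.73 and 2.31 over these and the other single-animal omissions. The call was also lost with normexp background correction (change 1.34), with slide as a block (1.99, SE 0.66), with array position as a covariate (1.32, SE 0.99), with scan day as a covariate (2.05, SE 0.62), on the first scan day alone (1.96, SE 0.71) and with the methods' t-test after Benjamini-Hochberg adjustment.

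CXCL3, a close relative of CXCL1 and also a CXCR2 ligand, measured -1.77, -2.26, -1.62 and -1.55 in the controls (A_01_P1670381). On day 4 it measured -0.81, -0.42, 0.10 and -1.23 after 7.4 Gy and -1.75, -0.55, -1.73 and 1.56 after 6.7 Gy. The higher dose was again above all controls in 4 of 4 animals and the lower dose in 2 of 4. The changes of 1.21 (SE 0.49, 2.31-fold, adjusted p = 0.14 by limma) and 1.18 (SE 0.49, 2.27-fold, adjusted p = 0.16 by limma) were not called. CXCL2, the third of this group, is not among the members and was read by 1 probe. It had changes of 1.66 after 7.4 Gy and 1.62 after 6.7 Gy (SE 0.71 each, adjusted p = 0.16 and 0.18 by limma), with 4 of 4 and 2 of 4 animals above all controls.

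CXCL6, made mainly by epithelial and stromal cells and a ligand of both receptors, differed in pattern. Its probe (A_01_P1755036) measured -2.50, -3.06, -2.71 and -2.06 in the controls, -2.09, -1.19, -2.60 and -1.33 on day 4 after 7.4 Gy, and -3.54, -1.28, -2.57 and -1.14 after 6.7 Gy. In both doses 2 of 4 animals were above all controls. Replicate 3 of the 7.4 Gy group, the highest of its group in CXCL1 and CXCL3, was within the control range for CXCL6, and replicate 1 of the 6.7 Gy group was below all controls. The changes were 0.78 (SE 0.41, 95% confidence interval -0.07 to 1.63, adjusted p = 0.26 by limma) and 0.45 (SE 0.41, interval -0.40 to 1.30, adjusted p = 0.51 by limma).

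CXCL5, an epithelial CXCR2 ligand, was barely measured. Its probes (A_01_P1755021 and A_01_P020088) were well above background on 3 and 2 of the 24 arrays, and on no day was a whole group above background, so no fold change is given. The highest values of both came from the same animal, replicate 4 of day 4 after 6.7 Gy, with -3.72 and -2.34. The next highest values were -5.49 in a day 12 animal after 6.7 Gy and -5.51 in control replicate 2.

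**Figure D2:**
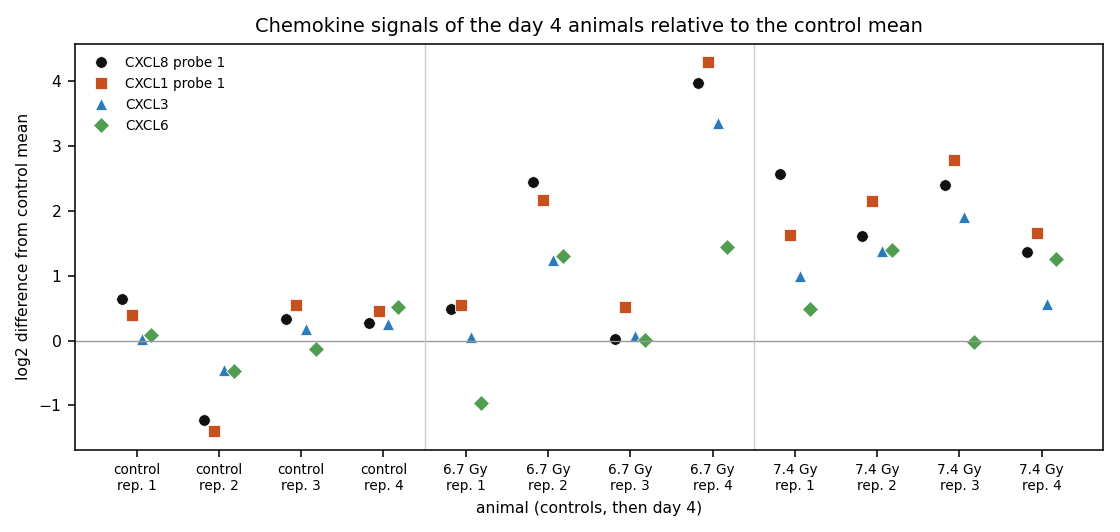
Difference from the control mean (vertical axis, log2 units) in each control and each day 4 animal for CXCL8 probe 1, CXCL1 probe 1, CXCL3 and CXCL6, with 1 marker per probe. Control replicate 2 lies lowest of the controls, 6.7 Gy replicates 1 and 3 stay near 0 for CXCL8, CXCL1 and CXCL3 while replicates 2 and 4 do not, and CXCL6 departs from the other genes in 7.4 Gy replicate 3.

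Over the 7 tested probes, 0 were called on day 4 after 6.7 Gy and 1 after 7.4 Gy, where the shares of all tested probes called were 0.978% and 2.33%. With limma's unadjusted p under 0.05 and the same fold limit, 6 of 7 passed at each dose, against 2.95% and 3.98% of all probes. CXCL6 was the exception in both. Every irradiated animal lay above every control for 6 of the 7 probes after 7.4 Gy and for 0 of 7 after 6.7 Gy, against 7.84% and 4.10% of all probes. Several probes read the same gene and the genes moved together across animals, so these counts are not of independent measurements. The median change of the 7 probes was 1.63 after 7.4 Gy and 1.50 after 6.7 Gy, where the median over all tested probes was -0.07 and -0.10.

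A single animal carried much of the change at 6.7 Gy. Replicate 4 of that day 4 group was the highest of 24 animals on 9 of 9 member probes. Without it the change against control fell from 1.73 to 0.99 for CXCL8 probe 1, from 1.88 to 1.07 for CXCL1 probe 1, from 1.18 to 0.46 for CXCL3 and from 0.45 to 0.12 for CXCL6. Without replicate 3, one of the low animals, 2 probes were called after 6.7 Gy, and without replicate 1 it was 1 probe. The SD within the 6.7 Gy group was between 1.14 (CXCL6) and 1.82 (CXCL8 probe 1), and within the 7.4 Gy group between 0.54 (CXCL1 probe 1) and 0.73 (CXCL1 probe 2). At the other end, control replicate 2 was the lowest control on 7 of 7 tested probes. Without it the changes after 7.4 Gy came to 1.58 for CXCL8 probe 1 and 1.59 for CXCL1 probe 1.

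The 2 doses were compared directly on each day. On day 4 the difference of 7.4 Gy minus 6.7 Gy was 0.25 for CXCL8 probe 1 (95% confidence interval -1.09 to 1.60), 0.18 for CXCL1 probe 1 (-1.24 to 1.60), 0.03 for CXCL3 (SE 0.49) and 0.33 for CXCL6 (-0.52 to 1.18). The intervals of CXCL8 probe 1 and CXCL1 probe 1 reach past a 2-fold difference in both directions. Those of CXCL8 probe 2 (-0.90 to 0.99), CXCL8 probe 3 (-0.91 to 1.18) and CXCL1 probe 2 (-0.97 to 1.37) do not. No member probe was called between doses on day 4, 7 or 12, and none passed with the unadjusted p. Of all probes 0%, 0% and 0.00277% were called, and 0.424%, 0.39% and 1.55% passed unadjusted. On day 12, with 2 animals a dose, the 7 probes were lower after 7.4 Gy by 0.24 to 1.02 log2 units. Both day 12 arrays of 6.7 Gy were from the first scan day and both of 7.4 Gy from the second. Dose and scan day therefore cannot be told apart between these animals.

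**Figure D3:**
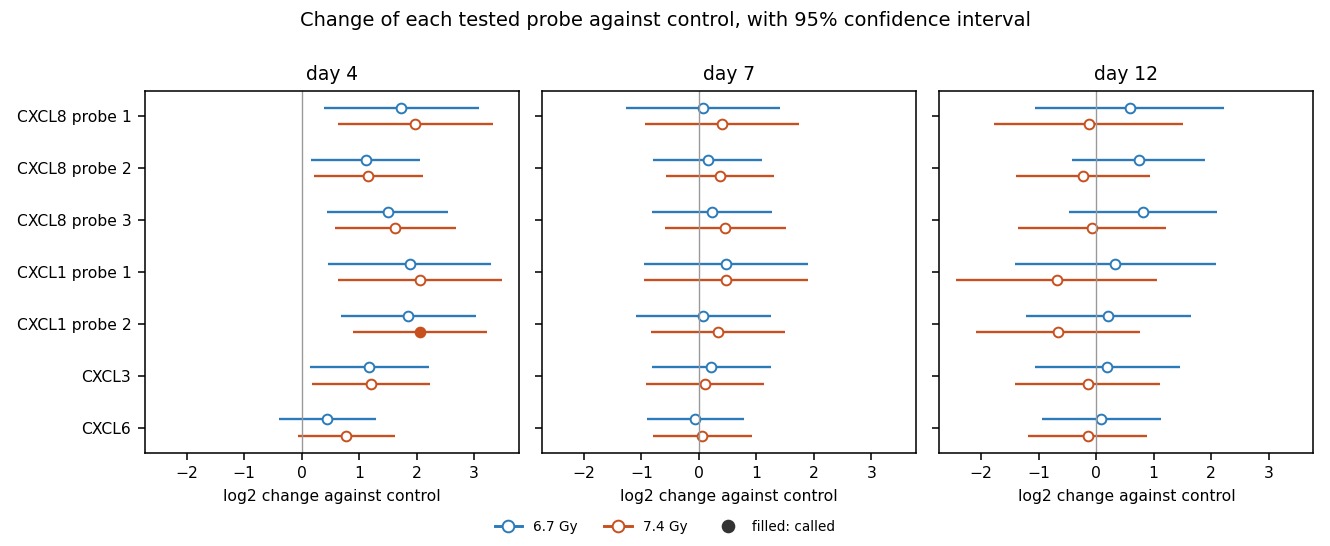
Change of each tested probe against control (horizontal axes, log2 units) on day 4, day 7 and day 12 after 6.7 Gy (blue) and 7.4 Gy (orange), with bars for the 95% confidence interval of the limma fit and a filled point where the probe was called. On day 4 all intervals except those of CXCL6 lie above 0 before adjustment and 1 point is filled, and on days 7 and 12 all intervals include 0.

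On day 7 the group means lay within 0.47 log2 units of control. CXCL8 probe 1 measured -4.05, -4.29, -3.05 and -4.29 after 6.7 Gy and -3.24, -3.88, -4.61 and -2.63 after 7.4 Gy. CXCL1 probe 1 measured -2.48, -3.17, -1.29 and -2.67 after 6.7 Gy and -2.17, -1.43, -3.85 and -2.14 after 7.4 Gy. For CXCL8, 1 of 4 animals after 6.7 Gy and 2 of 4 after 7.4 Gy were above all controls, and for CXCL1 it was 1 of 4 and 3 of 4. Changes against control over the 7 probes ran from -0.06 to 0.47 after 6.7 Gy and from 0.06 to 0.47 after 7.4 Gy. None was called, and none passed with the unadjusted p, where the shares of all probes were 0.235% and 0.568% called and 1.32% and 2.38% unadjusted.

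On day 12 the 2 animals at each dose gave -3.30 and -3.53 after 6.7 Gy and -4.19 and -4.07 after 7.4 Gy for CXCL8 probe 1. For CXCL1 probe 1 they gave -2.59 and -2.49 after 6.7 Gy and -3.85 and -3.28 after 7.4 Gy. The higher dose lay below 3 of 4 controls on both probes. Its arrays of this day were all from the second scan day, which held no controls. The changes against control ran from 0.09 to 0.82 after 6.7 Gy and from -0.69 to -0.08 after 7.4 Gy, with 0 probes called and 0 unadjusted. Of all probes 0.108% and 0.0443% were called, and 1.68% and 1.84% passed unadjusted. With 2 animals the 95% confidence interval for CXCL8 probe 1 ran from -1.07 to 2.22 after 6.7 Gy and from -1.78 to 1.51 after 7.4 Gy.

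Against day 4, with the 2 doses averaged, both CXCL1 probes were called lower on both days, and of the 3 CXCL8 probes 2 were called on day 7 and 1 on day 12. On day 7 both CXCL1 probes and CXCL8 probes 1 and 3 were lower, 4 of 7 probes against 1.06% of all tested probes, and 5 of 7 unadjusted against 1.37%. CXCL1 probe 2 fell by 1.75 (SE 0.40, 3.37-fold, adjusted p = 0.0075 by limma) and CXCL8 probe 1 fell by 1.62 (SE 0.46, 3.07-fold, adjusted p = 0.024 by limma). CXCL1 probe 1 fell by 1.50 (adjusted p = 0.046) and CXCL8 probe 3 by 1.22 (adjusted p = 0.029). CXCL3 had a change of -1.03 (SE 0.35, adjusted p = 0.055) and CXCL6 one of -0.61 (SE 0.29, adjusted p = 0.16), which were not called. CXCL8 probe 2 had a change of -0.88 (adjusted p = 0.073) and was not called either.

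On day 12 against day 4, 3 of 7 probes were called lower against 2.75% of all probes, and 5 of 7 unadjusted against 3.48%. CXCL1 probe 2 fell by 2.18 (SE 0.49, 4.53-fold, adjusted p = 0.0062 by limma), CXCL1 probe 1 by 2.15 (SE 0.59, adjusted p = 0.019) and CXCL8 probe 1 by 1.64 (SE 0.56, adjusted p = 0.048). CXCL8 probes 2 and 3 had changes of -0.89 (adjusted p = 0.12) and -1.20 (adjusted p = 0.062) and were not called, so CXCL8 was called on 1 of its 3 probes. CXCL2, outside the members, had changes of -0.99 on day 7 (adjusted p = 0.20) and -1.76 on day 12 (adjusted p = 0.054) against day 4 and was not called.

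These counts rested on the model and on single animals. For day 7 the count was 0 on the arrays of the first scan day alone and 1 with the methods' t-test after Benjamini-Hochberg adjustment, and for day 12 it was 0 with that t-test. With 1 animal left out, for day 7 the count came to 2 without replicate 2 or 4 of the 6.7 Gy day 4 group, without replicate 3 of the 7.4 Gy day 4 group, or without replicate 1 or 2 of the 6.7 Gy day 7 group. It came to 1 without replicate 1 of the 7.4 Gy day 4 group or replicate 3 of the 7.4 Gy day 7 group, and to 6 without replicate 3 of the 6.7 Gy day 4 group. For day 12 it came to 1 without either 6.7 Gy animal of that day or replicate 1 of its 7.4 Gy group, and to 5 and 6 without replicates 1 and 3 of the 6.7 Gy day 4 group.

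The order of the group means was alike at the top. For 7 of 7 tested probes the highest mean was that of day 4 after 7.4 Gy and the next that of day 4 after 6.7 Gy, and the lowest mean was that of day 12 after 7.4 Gy. The largest step between neighbors was below day 4 after 6.7 Gy, 1.15 log2 units for CXCL8 probe 1, 1.41 and 1.53 for the CXCL1 probes and 0.96 for CXCL3. No step between neighboring groups was larger than the spread of the animals in the 2 groups on either side of it, on any of the 7 probes.

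The receptor side gave little signal. 1 probe (A_01_P1678031) carried the older symbol IL8RB with the gene name of CXCR2 and thus stood outside the choice by symbol. It was well above background on 11 of 24 arrays, in 3 of 4 controls. On day 4 it was so in 2 of 4 animals at the lower dose and 3 of 4 at the higher, and on day 7 in 0 of 4 and 1 of 4. Its signals lay between -7.74 and -5.04. It was in no group above background throughout and was not tested. Because both receptors sit mainly on neutrophils, and the tissue was taken whole, fewer cells of a type and less RNA per cell cannot be told apart. CXCR1 was above background on 24 of 24 arrays and had changes of -0.43 and -0.31 on day 4 (adjusted p = 0.47 and 0.65 by limma). Of 7 tested genes in the list of other ligands, receptors and scavengers, 0 were called on any day. That list was not limited to the CXCR1 and CXCR2 side and also held CXCR3, CXCR4, CXCR5, CXCR6 and ACKR3. Between 0.0422% and 2.7% of all genes were called against control, so 0 of 7 is near the background.

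The members varied together across animals. Over the 8 irradiated animals of day 4, CXCL8 probe 1 and CXCL1 probe 1 correlated with Pearson's r = 0.92 (exact permutation p = 0.0044, adjusted 0.0088) and Spearman's rho = 0.74 (exact permutation p = 0.046, adjusted 0.069). For CXCL3 r was 0.91 (exact permutation p = 0.0029, adjusted 0.0086) and rho 0.76 (exact permutation p = 0.037, adjusted 0.069). For CXCL6 r was 0.58 (exact permutation p = 0.14, adjusted 0.14) and rho 0.57 (exact permutation p = 0.15, adjusted 0.15). Without the 2 animals farthest from the median of CXCL8, r came to 0.76, 0.78 and 0.43. All are two-sided and adjusted over 6 relations.

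The same 3 relations were computed in the 16 other animals. CXCL8 and CXCL1 had r = 0.77 (permutation p = 7.6e-04, adjusted 0.0046) and rho = 0.79 (permutation p = 4.8e-04, adjusted 0.0029), and r = 0.71 without the 2 farthest animals. CXCL3 had r = 0.62 (permutation p = 0.012, adjusted 0.018) and rho = 0.53 (p = 0.035, adjusted 0.069), and r = 0.67 without them. CXCL6 had r = 0.59 (permutation p = 0.017, adjusted 0.02) and rho = 0.45 (p = 0.08, adjusted 0.097), and without the 2 farthest animals r fell to 0.28, so that relation rests on them. Animals of several days and doses enter each relation, and differences between these groups are part of r.

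**Figure D4:**
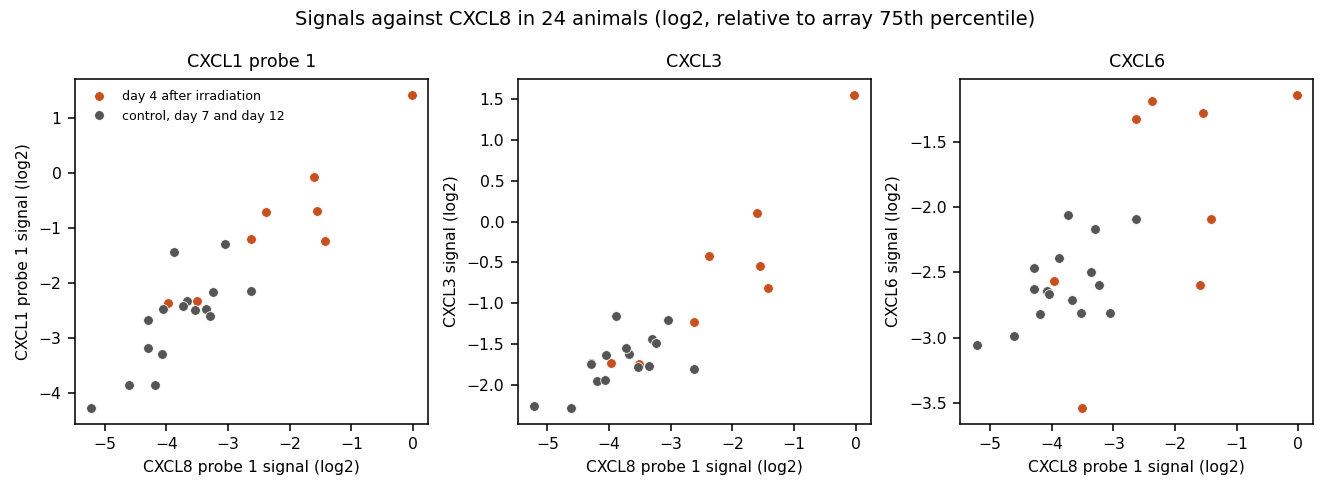
Signal of CXCL1 probe 1, CXCL3 and CXCL6 (vertical axes) against that of CXCL8 probe 1 (horizontal axes) in 24 animals, all in log2 units relative to the 75th percentile of the array, with orange for the 8 irradiated animals of day 4 and grey for the 16 other animals. CXCL1 and CXCL3 follow CXCL8 in both sets (r = 0.92 and 0.91 on day 4), and CXCL6 scatters more (r = 0.58).

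Among all other genes, CXCL2 had the pattern most like CXCL1 over the 24 animals (r = 0.97), followed by GADD45G (0.88), LOC100424161 (0.88), IER3 (0.87) and GPX2 (0.87). For CXCL8 the most similar genes were IER3 (0.91), an early response gene, EIF3J (0.90), DCUN1D5 (0.87), STEAP1 (0.87) and GPR110 (0.87). CXCL3 was most like LOC100424161 (0.91), CXCL2 (0.89), IER3 (0.89), MAK16 (0.88) and EIF3J (0.88), so IER3 stood beside 3 of the 4 genes. CXCL6 was most like TMEM173 (0.83), PLEKHG2 (0.78), MYOF (0.77), IFI16 (0.76) and RAB29 (0.76), and shared none of these with the others. These are descriptions over 24 arrays that share the animals. Without replicate 4 of day 4 after 6.7 Gy all 20 values lay between 0.74 and 0.95.

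The cytokines that induce these chemokines were read next. Of 27 genes in the list of upstream cytokines and receptors 19 were tested, and 0 were called on day 4 after 6.7 Gy and 1 after 7.4 Gy, where 1.15% and 2.7% of all genes were called. The 1 gene was IL1R1, the signaling receptor of IL-1, which rose by 1.06 (adjusted p = 0.046 by limma) and measured -0.65 to -0.21 against -2.08 to -0.82 in the controls, without overlap. TNF had changes of -0.17 and -0.04 (adjusted p = 0.79 and 0.96) and IL1B of -0.32 and -0.08 (adjusted p = 0.77 and 0.95), the lower dose first. IL6 had changes of -0.86 and -0.85 (adjusted p = 0.12 and 0.097) and was called higher on day 12 than on day 4, by 1.70 (adjusted p = 6.7e-04). IL1A and IL17A were well above background on 8 and 4 of 24 arrays and were not tested. The median change of the 19 genes was -0.06 and -0.05, beside -0.07 and -0.05 over all genes.

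NF-kB carries these signals to the chemokine promoters. Of 21 genes for its subunits, kinases and feedback inhibitors 19 were tested and 0 were called in any comparison with control, a count near the background of 0.0422% to 2.7% of all genes. NFKBIA, the inhibitor that NF-kB itself induces, had changes of 0.16 and 0.24 on day 4 (adjusted p = 0.62 and 0.49). TNFAIP3 (A20), another induced inhibitor, had changes of -0.04 and 0.31 (adjusted p = 0.91 and 0.30), and on day 7 it was lower than on day 4 by less than 2-fold (change -0.64, adjusted p = 0.003), which was not called.

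Adhesion molecules let leukocytes leave the vessels. Of 17 genes in that list 10 were tested. On day 4, where 1.15% of all genes were called after 6.7 Gy and 2.7% after 7.4 Gy, VCAM1 was called at both doses. VCAM1 binds monocytes and lymphocytes on activated endothelium. It rose by 1.05 after 6.7 Gy (adjusted p = 0.04) and by 1.01 after 7.4 Gy (adjusted p = 0.027), and the controls, at -0.38 to 0.32, lay below all 8 animals, at 0.51 to 1.16. ICAM1, which neutrophils hold to, had changes of -0.11 and 0.00 (adjusted p = 0.53 and 0.98), and SELP (P-selectin) of 0.15 and 0.27 (adjusted p = 0.63 and 0.36). SELE was above background on 1 of 24 arrays. The other CXC chemokines had 6 tested genes and the signaling genes below CXCR2 had 8. None of these was called on day 4. The other CXC chemokines had positive changes in 6 of 6 genes at both doses. Their median was 1.01 after 6.7 Gy and 0.47 after 7.4 Gy, beside -0.07 and -0.05 over all genes. RAC2, a GTPase of leukocyte motility, had changes of -0.99 and -0.76 on day 4 (adjusted p = 0.01 and 0.022, under 2-fold). It was called lower on day 7, by 1.01 after 6.7 Gy (adjusted p = 0.017) and by 1.23 after 7.4 Gy (adjusted p = 0.0023), where 0.345% and 0.731% of all genes were called. On day 12, where 0.162% and 0.0422% of all genes were called, 0 genes of these lists were called.

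Markers of neutrophils were set beside the chemokines. Of 30 genes in that list 14 were tested. On day 4, 0 were called after 6.7 Gy and 1 after 7.4 Gy, where 1.15% and 2.7% of all genes were called. The 1 gene was FCGR3, an Fc receptor that monocytes and natural killer cells also carry, which rose by 1.13 (adjusted p = 0.03) and had a change of 1.11 after 6.7 Gy (adjusted p = 0.05, not called). CSF3R, the receptor for the neutrophil growth factor, had changes of -0.26 and -0.41 (adjusted p = 0.27 and 0.085), and FPR1, a receptor for bacterial peptides, of 0.49 and 0.24 (adjusted p = 0.25 and 0.61). MPO was well above background on 3 of 24 arrays, and S100A12 and ELANE had no named probe. The summed linear signal of the 14 genes was 21.7 to 55.6 in the controls, 28.9 to 79.9 on day 4 after 6.7 Gy and 18.5 to 44.9 after 7.4 Gy, in units of the array's 75th percentile.

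S100A8 and S100A9, the calprotectin subunits that fill the neutrophil cytosol and are also made by inflamed epithelium, were highest in the animal that was highest for the chemokines. In replicate 4 of day 4 after 6.7 Gy they measured 1.23 and 2.14, and in replicate 2 they measured -2.52 and -1.08. The controls lay at -6.35 to -5.72 and -2.39 to -1.97, with 6.7 Gy replicate 3 among them in S100A8 at -5.88. Replicate 1 was not well above background in S100A8, so its value of -7.21, which enters the group change, has no reliable rank. After 7.4 Gy S100A8 ranged from -6.48 to -3.59 and S100A9 from -2.15 to -1.39. The group changes were 2.45 and 1.45 for S100A8 (adjusted p = 0.22 and 0.49) and 1.41 and 0.46 for S100A9 (adjusted p = 0.15 and 0.68), the lower dose first, and none was called. CSF3R in replicate 4 was at -2.20, below the controls at -2.00 to -1.75. This was not particular to that animal. All 4 animals of day 4 after 7.4 Gy, at -2.62 to -2.07, were also below the controls, and the 6.7 Gy group reached -2.49. The part of neutrophil number in the chemokine signals was not tested.

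**Figure D5:**
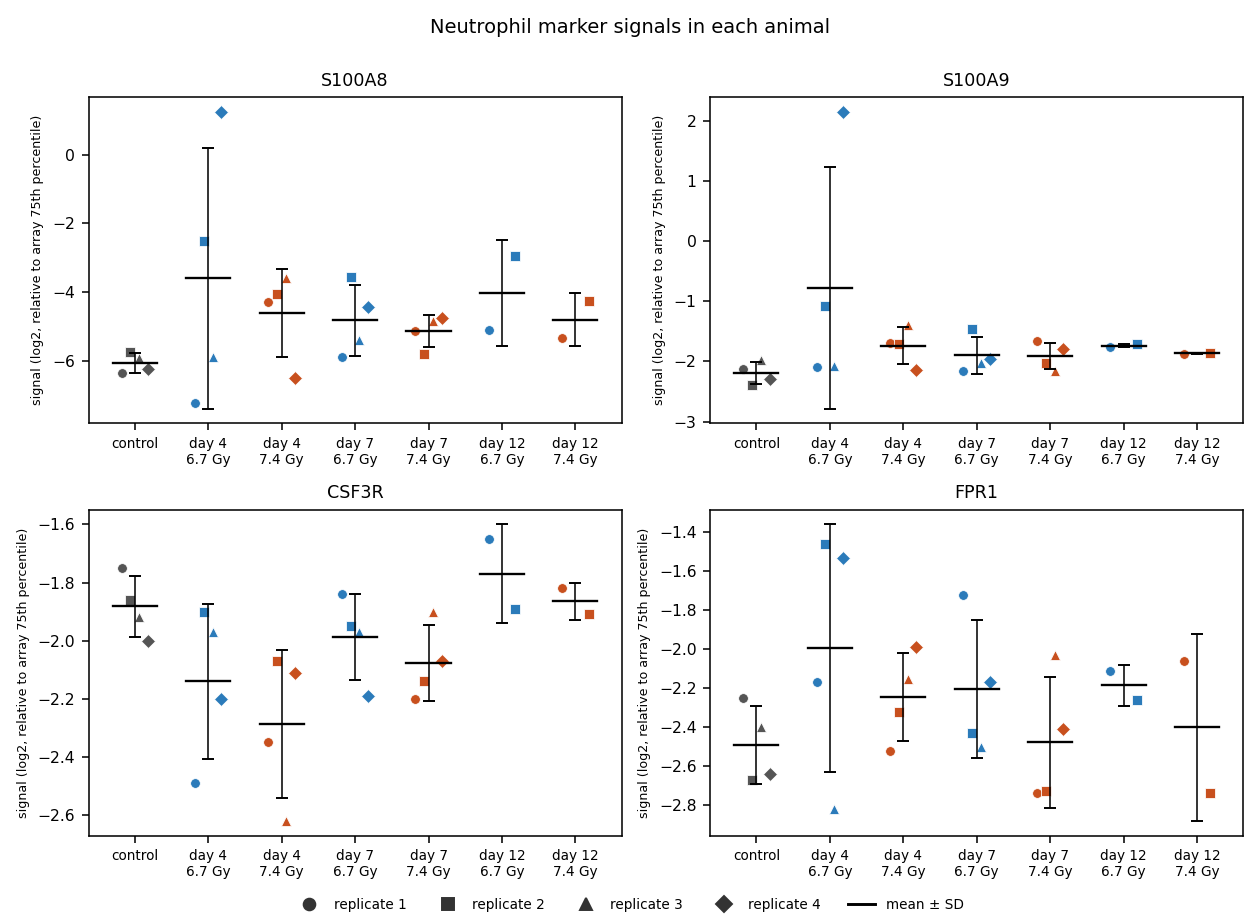
Signal of S100A8, S100A9, CSF3R and FPR1 (vertical axes, log2 relative to the 75th percentile of the array) in each of 24 animals by group, with colors, markers, means and SD bars as in the plot of the chemokines by animal. Replicate 4 of day 4 after 6.7 Gy stands highest in S100A8 (1.23) and S100A9 (2.14). In CSF3R it is below all controls, as are all 4 animals of day 4 after 7.4 Gy.

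Markers of some other cell types were called on day 4, where 1.15% of all genes were called after 6.7 Gy and 2.7% after 7.4 Gy. Of 7 tested macrophage and monocyte markers 0 were called after 6.7 Gy, and CD14 was called after 7.4 Gy, where it rose by 1.14 (adjusted p = 0.011). The summed signal of these 7 was 45.7 to 59.5 in the controls, 40.8 to 75.7 after 6.7 Gy and 64.7 to 76.2 after 7.4 Gy, so the higher dose did not overlap the controls. Of 7 fibroblast markers 0 were called after 6.7 Gy, and COL3A1, DCN and LUM rose after 7.4 Gy by 1.01, 1.26 and 1.09 (adjusted p = 0.037, 0.0097 and 0.014), and the sums were 41 to 76.8 in the controls and 90.3 to 157 after 7.4 Gy. Of 8 epithelial markers VIL1 (villin) fell at both doses, by 1.32 and 1.27 (adjusted p = 0.0011 and 8.5e-04), and KRT20 after 6.7 Gy, by 1.05 (adjusted p = 0.015). The epithelial sums were 134 to 221 in the controls, 84.5 to 136 after 6.7 Gy and 103 to 124 after 7.4 Gy. The largest shifts among the markers named here were in HBA and HBB (globins), 2 of 3 tested red cell genes, which were called lower at both doses. Their changes were -3.30 and -6.11 after 6.7 Gy (adjusted p = 1.2e-05 each) and -3.32 and -5.88 after 7.4 Gy (adjusted p = 9.4e-06 and 1.7e-05). CD79B, a part of the B cell receptor and 1 of 3 tested B cell genes, was called lower with changes of -1.29 and -1.25 (adjusted p = 0.025 and 0.016), and VWF, 1 of 5 tested endothelial genes, rose after 7.4 Gy by 1.12 (adjusted p = 0.041). Of the tested markers of mast cells (6), smooth muscle (3), T cells (7) and ileal enterocytes (4), 0 were called at either dose. The part of these shifts in the chemokine signals was not tested. Against day 4, where 1.24% of all genes were called on day 7 and 3.01% on day 12, VIL1 was higher on day 7, by 1.10 (adjusted p = 8.4e-05).

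Array position and scan day moved with the groups. All controls were in position 1 of their slides, all 7.4 Gy animals of day 4 in position 2, and the day 7 and day 12 animals in positions 3 and 4, so position and day cannot be told apart for the later days. Of the 6.7 Gy animals of day 4, replicates 1 and 2 were in position 1. With these alone the changes against control were 1.46 for CXCL8 probe 1, 1.36 and 1.49 for the CXCL1 probes, 0.65 for CXCL3 and 0.17 for CXCL6. With position as a covariate the changes after 7.4 Gy came to 1.45 (SE 1.17), 1.01 (SE 1.16), 1.32 (SE 0.99), 0.14 (SE 0.82) and 0.23 (SE 0.73) in the same order. On the arrays of the first scan day alone, with only replicates 1 and 2 of that day 4 group, they were 2.09, 1.89, 1.96, 1.19 and 0.94. Of the 6.7 Gy animals of day 4 that scan day held only replicates 3 and 4, the latter the highest of all animals on each member probe. After 6.7 Gy the CXCL1 probes gave 2.40 and 2.23, CXCL3 gave 1.72 and CXCL6 gave 0.72 there. The second scan day held no controls. No probe was called in any of these fits.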

How the data were processed

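Total RNA from ileum was labeled with Cy3 and hybridized by the authors to Agilent 1-color 4x44K rhesus arrays. Per the file headers the spots were read with Feature Extraction 11.0.1.1, which gave background-subtracted intensity values with no scaling between arrays. In the deposited log2 table the authors scaled arrays to their 75th percentile and centered each probe on its median. Values were computed again from the processed signal intensities. Repeated spots were averaged as log2 values without outlier spots, and the 75th percentile over 43603 probes was subtracted. Tested were 36108 probes that exceeded background on all arrays of 1 or more groups. Symbols came from the deposited table, and for 8317 probes from RefSeq by accession.

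Under R 4.3.3, limma version 3.58.1 fitted 7 group means over 24 arrays. Tests are two-sided. Simulated data with known changes were used to test the fit. Gene lists use 14218 genes, each by its brightest tested probe. The members and lists were chosen with earlier results of these data known. Named were all member probes, list genes called against control, a fixed set of ligands, cytokines and neutrophil markers, and the 5 genes most like each member. The p-values measure the spread between animals, and their number limits precision. Animals come from 6 slides and 2 scan days. With 1 day 12 animal left out, the spread of its group is taken from the other groups.

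Alternatives included normexp on the median spot and background intensities with an offset of 50 (the mean signal was not used here), quantile normalization, other filters and models, slide, position and replicate number. The scan day, first-scan-day, position 1 and position 2 fits were chosen after seeing the data. No sequences are printed because no sequence tables were used here. Results for some genes of the lists are not reported here.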

Additional observations from a re-analysis of the deposited data

Results flagged for a closer look

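Over 36 genes or probes in groups of 4 animals (180 groups), 8 values stood apart from the other 3 of their group by Dixon's ratio, and chance alone sets apart about 5% of groups. CXCL1 probe 1 was at -4.27 in control replicate 2, with the other controls at -2.48 to -2.33. CXCL1 probe 2 was at -4.64 in day 7 7.4 Gy replicate 3, with the others at -3.54 to -3.34. CXCL5 probe 1, in day 4 7.4 Gy replicate 1, was at -6.49 against -7.65 to -7.46, but not well above background on any of these 4 arrays. CXCL5 probe 2 in control replicate 2 was at -5.51 against -8.83 to -8.30, and above background only there among the controls. CXCR1 was at -2.46 in day 7 6.7 Gy replicate 4 (others -3.28 to -3.17) and at -4.61 in day 7 7.4 Gy replicate 2 (others -3.14 to -3.01). CSF1R was at -0.21 in day 7 7.4 Gy replicate 3 (others 0.34 to 0.41), and VIL1 at 2.10 in day 4 7.4 Gy replicate 1 (others 2.63 to 2.72). The test on groups of 4 did not set apart day 4 6.7 Gy replicate 4 on any member probe.

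Some genes differed between irradiated animals of different days by the direct test, in which array position and day cannot be told apart. On day 7 against day 4 the changes were -1.62 and -1.22 for CXCL8 probes 1 and 3, -1.50 and -1.75 for CXCL1 probes 1 and 2, and 1.10 for VIL1. On day 12 against day 4 they were -1.64 for CXCL8 probe 1, -2.15 and -2.18 for CXCL1 probes 1 and 2, 1.70 for IL6 and -1.34 for VWF.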

How the results depend on the processing

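The number of member probes called after 7.4 Gy on day 4 (1 as reported) was 0 with normexp, with slide as a block, with array position or scan day as a covariate, on the first scan day alone and with the methods' t-test after Benjamini-Hochberg adjustment. It was 2 with quantile normalization, with only probes above background on all arrays and with trend and robust moderation, and 6 with the unadjusted methods' t-test. For day 7 against day 4 (4 as reported) it was 2 with normexp and with only the groups compared, 1 with the adjusted methods' t-test and 0 on the first scan day alone. For day 12 against day 4 (3 as reported) it was 1 with only the groups compared and 0 with the adjusted methods' t-test.

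Leaving out 1 animal at a time gave counts of 0 to 2 for day 4 after 6.7 Gy, 0 to 1 after 7.4 Gy, 1 to 6 for day 7 against day 4 and 1 to 6 for day 12 against day 4. With a replicate block the counts were 0, 1, 3 and 1 in the same order. Deviations of animals with the same number correlated between -0.26 and 0.36 (median 0.03, 62 pairs across groups), and animals share a number only. The counts of the other 7 comparisons were 0 under every alternative that gave a value. On day 4 the changes against control of the 7 probes lay between 0.12 and 2.40 over all alternatives at 6.7 Gy and between 0.14 and 2.31 at 7.4 Gy. Over all tested probes the calls on day 4 numbered 353 at 6.7 Gy and 842 at 7.4 Gy, and came to 216 and 485 with normexp, 49 and 418 with only the groups compared, 199 and 144 with position, and 0 and 125 with the adjusted methods' t-test (663 and 1083 unadjusted). On the first scan day alone the day 4 counts came to 108 and 359, and in position 1 alone to 5 at 6.7 Gy. For day 7 against day 4 normexp gave 189 against 381, and for day 12 against day 4 it gave 405 against 994 and the adjusted methods' t-test 597. Without 1 animal the counts over all probes came to 222 (control replicate 1) and 232 (6.7 Gy replicate 4) at 6.7 Gy, and to 401 (control replicate 1) and 362 (7.4 Gy replicate 1) at 7.4 Gy, and for day 12 against day 4 to 594 (day 12 7.4 Gy replicate 1). Position could not be fitted for days 7 and 12 against control or day 4. The cause of these differences was not tested.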
